A study of Mus musculus with 13 samples.

Results

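Genes that mark inhibitory neurons of the forebrain were followed through single cells of the mouse claustrum, a sheet of neurons between the striatum and the insular cortex. The 9 genes were Gad1, Gad2, Slc32a1, Lhx6, Dlx1, Sst, Npy, Vip and Chodl, taken as a named list from the 23427 genes with a row in either deposited count table. Of the 9, 8 had a row and Vip had none, so Vip is not analysed here. All harvested cells were used, before any filter on cells. A cell was called Gad-high when it held at least 50 counts of Gad1 or of Gad2. There were 8 such cells beside 1104 others. All 8 came from the 856 cells of the table that lists Gad1 and Gad2 (0.935%, exact 95% Clopper-Pearson interval 0.404 to 1.83%, counting error only).

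The cells came from 4 male C57BL/6 mice on 13 plates. The 256 blindly sampled cells came from 1 mouse on plates 1 to 3, in which a retrograde virus driving GFP, injected in the anterior cingulate cortex, served to find the claustrum for dissection. The other 856 cells came from 3 mice on plates 4 to 13, which had received red fluorescent retrobeads in the retrosplenial cortex (RSC) and green ones in the lateral entorhinal cortex (LEC). These were picked by hand and are marked RSC-labeled (292 cells), LEC-labeled (306 cells) or unlabeled (258 cells). The term blindly sampled is used here for the mouse with the virus only. The paper's count of blindly selected cells is larger than the number of cells from that mouse. A bead label is taken to mean that a process of the cell reached the injected area, which was not tested here for single cells. An unlabeled cell may still project there. In projection mice 1 and 2 each label was on a plate of its own, so that plate and label cannot be told apart there. In projection mouse 3, RSC-labeled cells were on plates 6 and 12 and LEC-labeled cells on plates 7 and 12, so that plate 12 allows the labels to be compared within a plate. Per cell, the total had a median of 25418 counts in the blindly sampled animal and of 140052 in the other 3. Lhx6, Dlx1 and Npy had a row in both tables, while Gad1, Gad2, Slc32a1, Sst and Chodl had one only in the table of the projection mice and are not analysed in the other mouse. Their traces are given over the 848 cells of the projection mice that are not Gad-high, and sums over all cells take them as 0 in the other mouse.

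Neurons that release GABA make it from glutamate with the glutamate decarboxylases encoded by Gad1 and Gad2, and load it into vesicles with the transporter encoded by Slc32a1. Cortical interneurons are born in the ganglionic eminences, where Dlx genes specify GABAergic fate and Lhx6 marks cells of the medial eminence. The neuropeptide genes Sst, Npy and Vip divide the mature cells into classes, and Chodl with Nos1 marks a rare kind of Sst neuron that is known for long-range axons and strong Npy expression. Most claustrum neurons are instead glutamatergic and carry Slc17a7, the vesicular glutamate transporter.

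The 8 Gad-high cells are identified by the well, the plate and the 8-base barcode that tagged their transcripts. The barcodes are shown because the same ones return on other plates, which bears on the traces of these genes in other cells. No letter is singled out by capitals.
C01, plate 6: caccgtag
D01, plate 6: caacctac
G01, plate 6: cactccac
F03, plate 10: ctctctga
C10, plate 8: cttagctg
D07, plate 9: gtgagcag
D08, plate 9: gagaccca
H10, plate 13: ctgcaaat

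The 13 plates used 368 distinct barcodes in all, and each plate shared its set with 2 or 3 other plates. Plates 4 and 6, for example, shared 85 barcodes.

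The promoters of 4 genes are shown because Sst, Npy, Chodl and Nos1 were high together in 3 of the Gad-high cells. Each run is the 250 bases before the annotated start from RefSeq, build GRCm38.p6, written 5′ to 3′ on the strand of the gene. The count tables give no coordinates, and the build named in the submitters' processing notes is NCBIM37, so these positions serve only to place the sequence. Capitals mark the cAMP response element TGACGTCA, which reads the same on both strands.
Sst, chr16:23890845-23891094, minus strand: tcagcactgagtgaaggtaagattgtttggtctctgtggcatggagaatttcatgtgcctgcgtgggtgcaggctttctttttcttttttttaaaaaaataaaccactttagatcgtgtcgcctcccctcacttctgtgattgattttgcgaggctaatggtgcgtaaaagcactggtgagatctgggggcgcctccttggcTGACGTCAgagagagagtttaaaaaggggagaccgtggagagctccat
Npy, chr6:49822460-49822709, plus strand: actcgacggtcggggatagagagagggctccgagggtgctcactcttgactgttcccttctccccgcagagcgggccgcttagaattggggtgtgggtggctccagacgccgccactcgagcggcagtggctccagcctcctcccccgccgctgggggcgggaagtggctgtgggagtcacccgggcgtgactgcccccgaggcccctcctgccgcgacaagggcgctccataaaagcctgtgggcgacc
Chodl, chr16:78930698-78930947, plus strand: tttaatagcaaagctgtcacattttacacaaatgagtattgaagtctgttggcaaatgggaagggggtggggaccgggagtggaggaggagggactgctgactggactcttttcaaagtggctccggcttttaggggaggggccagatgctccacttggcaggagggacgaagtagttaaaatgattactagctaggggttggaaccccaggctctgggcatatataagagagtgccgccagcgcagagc
Nos1, chr5:117866589-117866838, plus strand: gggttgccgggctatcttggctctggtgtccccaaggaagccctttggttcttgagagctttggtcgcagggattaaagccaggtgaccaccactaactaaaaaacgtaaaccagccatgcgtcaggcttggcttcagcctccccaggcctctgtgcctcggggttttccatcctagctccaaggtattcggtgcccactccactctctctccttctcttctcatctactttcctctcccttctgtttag

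The element stood in the Sst promoter, beginning at position -48 from the start, and these letters were not in the other 3 windows. Of 32851 promoters of the same length, 508 held it (1.55%). A match of letters is a description and not a binding site.

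Gad1 and Gad2 split the cells without overlap at the limit of 50 counts, which is what chose the Gad-high cells. Gad1 was at 454, 199, 392 and 251 counts in the RSC-labeled cells C01, D01 and G01 of plate 6 and F03 of plate 10. In the unlabeled cells C10 of plate 8, D07 and D08 of plate 9 and H10 of plate 13, Gad1 was at 391, 155, 160 and 32 counts. Gad2 was at 81, 163, 214 and 150 counts in those 4 RSC-labeled cells and at 462, 497, 348 and 53 counts in the 4 unlabeled cells. The cell nearest to the limit from above was H10, with 32 counts of Gad1 and 53 of Gad2. The nearest from below was the LEC-labeled cell A02 of plate 5, with 13 counts of Gad1 and 0 of Gad2 in a total of only 1640 counts, and without Snap25 or Slc17a7. In all other cells neither gene exceeded 1 count. The number of Gad-high cells was 9 with a limit of 10 counts, 7 with 100 counts, 7 when 50 counts of both genes were asked for, and 9 with a limit of 500 CPM, which scales the counts of a cell to the same total for each cell.

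**Figure D1:**
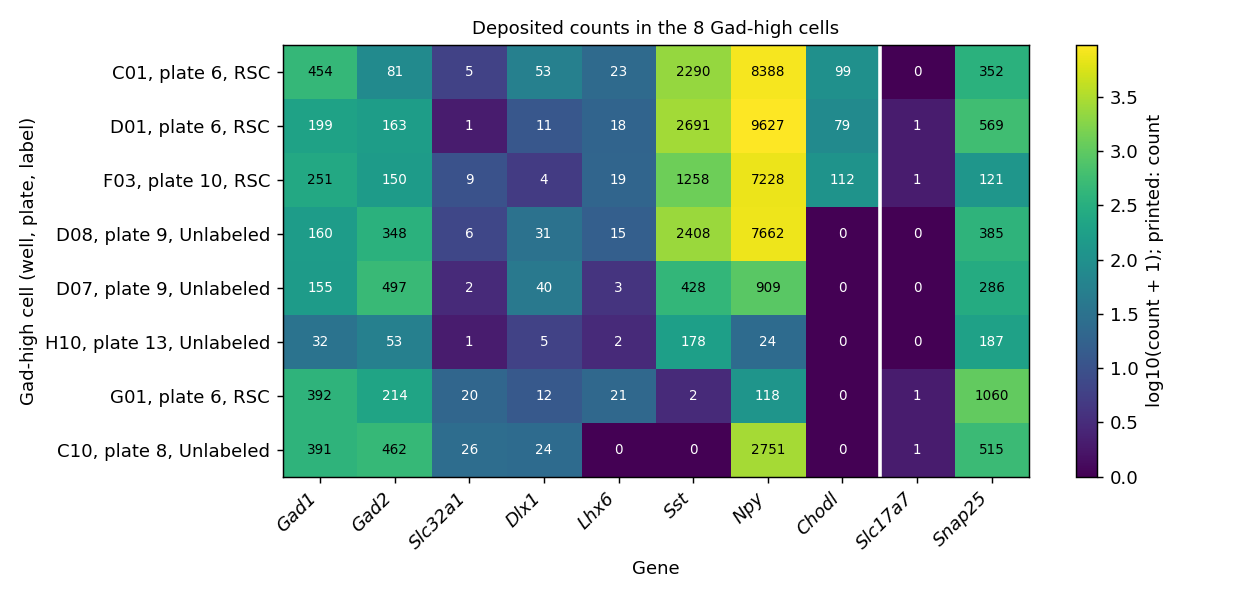
Deposited counts of the 8 listed genes and of Slc17a7 and Snap25 (columns) in the 8 Gad-high cells (rows, named by well, plate and label), with colour as log10 of the count plus 1. Gad1 and Gad2 are present in all rows, Chodl only in the upper 3, which are RSC-labeled, and Slc17a7 is at 0 or 1.

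The vesicular transporter and the transcription factors, which the rule did not use, accompanied the decarboxylases. Slc32a1 had counts in 8 of 8 Gad-high cells, from 1 count in D01 and H10 to 26 in C10. It was also present in 3 of the 848 other cells of the projection mice, at no more than 2 counts. Dlx1 was at 4 to 53 counts and was found in all 8 cells. Lhx6 was at 2 to 23 counts in 7 cells and at 0 in C10. Over the 1104 other cells, Dlx1 came to 3 counts and Lhx6 to 6 counts in all.

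The excitatory marker Slc17a7 was almost lacking from the same cells. It was at exactly 1 count in D01, G01, F03 and C10, and at 0 in C01, D07, D08 and H10. Of the 746 other cells with at least 50000 counts, a depth that all 8 Gad-high cells reached, the median was 20.5 counts of Slc17a7, and only 3 had 0 or 1. The summed level of 10 excitatory genes was 0 to 34.9 CPM in the Gad-high cells, against a median of 1646 CPM and a lowest value of 275 CPM in the other 1007 cells that held both Snap25 and Slc17a7. A filter that asks for a count each of Snap25 and Slc17a7 leaves 1011 cells. It kept 4 Gad-high cells, each by a single Slc17a7 count, and removed the other 4. The filter dropped 70 further cells for lack of Slc17a7, with a median total of 6454 counts, and 1 of those 70 held a count of Gad1 or Gad2.

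**Figure D2:**
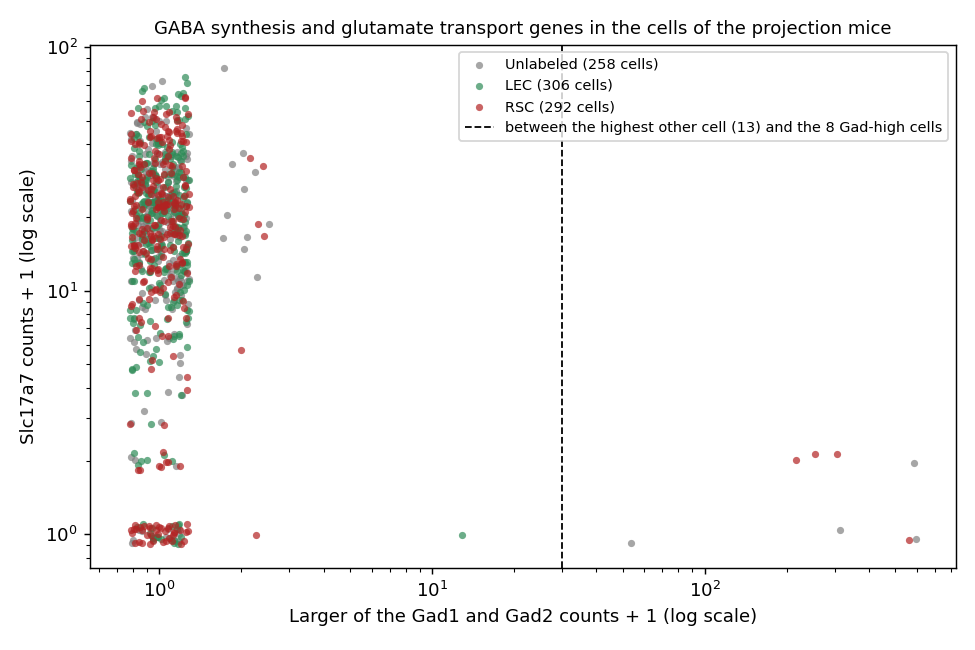
Each point is a cell of the 3 projection mice, with the larger of its Gad1 and Gad2 counts plus 1 on the x axis and its Slc17a7 counts plus 1 on the y axis, both on log scales and with slight random spread to separate points. The dashed line stands between the Gad-high cells and all others. The 8 Gad-high cells lie at the lower right with 0 or 1 count of Slc17a7, and the LEC-labeled point between the groups is the cell with 13 counts of Gad1.

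Markers of glia and vessels were low in the Gad-high cells and also in the other cells, and those of striatal neurons were low in most Gad-high cells. All 5 astrocyte genes, all 5 microglial genes and all 4 endothelial and mural genes with a row were at 0 in each of the 8. The median sum of each of these lists was also 0 in the 1007 other cells with Snap25 and Slc17a7. Genes of oligodendrocytes and their precursors summed to between 0 and 160 CPM, against a median of 4.37 CPM in the others. Genes of striatal projection neurons, the GABAergic cells of the neighbouring striatum, summed to between 0 and 277 CPM, with 5 of 10 at 0 in all 8. Their median in the others was 137 CPM, and D01 (277 CPM) and D07 (234 CPM) lay above it. The neuronal gene Snap25 was at 830 to 4604 CPM in the Gad-high cells, against a median of 4143 CPM in the 1007 other cells. Genes of the claustrum and cortical clusters of the study summed to a lower median level than in the others. The 12 genes summed to between 286 and 2324 CPM in the Gad-high cells, with a median of 1008 CPM. The 1007 others had a median of 3807 CPM and a lower quartile of 2290 CPM. In all 8 Gad-high cells, 3 of the 12 genes were at 0. Synpr, a synaptic vesicle protein gene among the 12, was in all 8, at 26.8 to 1471 CPM. Its median went the other way from the sum, at 430 CPM in the Gad-high cells and 13.3 CPM in the 1007 others. Of those others 60.6% held it, and their level pooled over cells was 838 CPM. Pcp4 reached 1529 CPM in F03 and Spon1 773 CPM in D08. The wells were filled by hand, and no doublet caller was run. Whether wells held more than a single cell was not tested.

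Neuropeptide genes and other class markers divided the Gad-high cells into groups, each named X-like after its leading class markers. The RSC-labeled cells C01, D01 and F03 were Sst-like cells with Chodl. They held 2290, 2691 and 1258 counts of Sst and 8388, 9627 and 7228 counts of Npy. Chodl, a membrane lectin gene, was at 99, 79 and 112 counts in them and at 0 in the other 5 Gad-high cells. Nos1, the gene of neuronal nitric oxide synthase, was at 130, 164 and 527 counts, and Crhbp, which encodes a binding protein of corticotropin-releasing hormone, at 614, 842 and 653. The same 3 cells had Calb2 at 91, 195 and 101 counts. They came from projection mice 3 and 1, and C01 and D01 from the same plate.

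Another 3 cells, all unlabeled, were Sst-like without Chodl. D08 held 2408 counts of Sst and 7662 of Npy, with 1075 of the calcium-binding protein gene Calb1, 541 of Crhbp and 1 of Nos1. D07, from the same plate and mouse, held 428 counts of Sst, 909 of Npy and 950 of Calb1. It also had 213 counts of Npas1, a transcription factor gene, and 3 of Lhx6, and 4 of 7 Lamp5 class genes beside 5 of 9 Sst class genes. H10, the shallowest at 56231 counts, held 178 counts of Sst, 71 of Crhbp, 69 of Calb2 and only 24 of Npy.

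The remaining 2 cells lacked an Sst signal. G01, RSC-labeled, was Pvalb-like, with 189 counts of the parvalbumin gene Pvalb, 193 of Tac1 and 164 of the potassium channel gene Kcnc2, 5 of 6 Pvalb class genes, and 2 counts of Sst. C10, unlabeled, was Lamp5-like, with 248 counts of Lamp5 (listed under its older name), 179 of Id2, 33 of Cplx3 and 2751 of Npy, and without Sst or Lhx6. It held 4 of 7 Lamp5 class genes and also 3 of 4 Sncg class genes with a row, with 209 counts of Cck, 8 of Cnr1 and 7 of Col5a3, and its summed Sncg class level of 2003 CPM was the highest of the 8. Adarb2, which marks interneurons of the caudal eminence, was at 32 counts in C10. None of the 8 had a leading set of Vip class genes: of the 6 with a row, at most 3 were present in a cell, and Calb2 or Crh led where any was present.

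**Figure D3:**
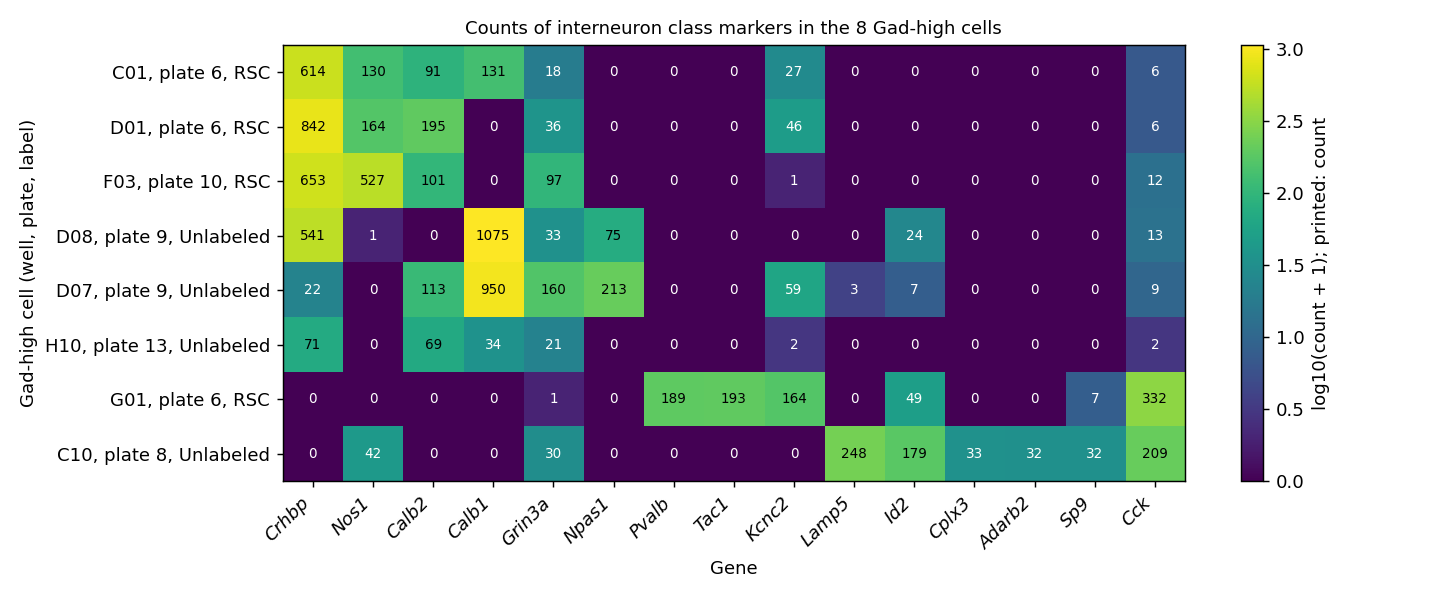
Counts of 15 interneuron class markers (columns) in the 8 Gad-high cells (rows), with colour as log10 of the count plus 1. Nos1 is at 130 to 527 in the 3 Chodl cells, Pvalb is present only in G01, and Lamp5 is at 248 in C10 and at 0 or 3 in the others.

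Gene levels varied widely among the 8 cells. Npy ranged from 393 CPM in G01 to 49554 CPM in F03, and no other cell with Snap25 and Slc17a7 exceeded 5664 CPM. Before that filter, the highest other cell was at 10811 CPM, an unlabeled cell of projection mouse 2. Sst ranged from 0 CPM in C10 to 12410 CPM in D01. Gad1 ranged from 569 CPM in H10 to 3495 CPM in C10, and Gad2 from 430 CPM in C01 to 4130 CPM in C10. GABA receptor genes, which excitatory neurons use to receive inhibition, summed to 648 to 3540 CPM in the Gad-high cells and to a median of 1580 CPM in the 1007 other cells.

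Over all harvested cells, the log2(CPM + 1) values of Gad1 were most like those of Gad2 (Pearson r = 0.824), Dlx1 (0.795), Slc32a1 (0.777) and Lhx6 (0.714) among the listed genes. Chodl (0.519), Sst (0.379) and Npy (0.162) were less like it. Among 14501 genes outside the marker lists and with a row in both tables, those most like Gad1 were Grik1 (0.580), a kainate receptor subunit gene, Rasgrp2 (0.514), Nxph1 (0.493), a neurexin ligand gene, and Ptprm (0.471). They were followed by Rbms3, Kcns3, Zfp536, Kctd8, Fam46a and Rcan3, at 0.402 down to 0.339. Grik1 was in 6 of the 8 Gad-high cells and in 9 of the 1104 others. These correlations are descriptions across cells that share libraries, with the genes that lack a row in a table set to 0 there, and they rest on a few cells with counts.

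The bead labels raise the question of whether inhibitory neurons of the claustrum were among the cells with a process in RSC or LEC. Gad-high cells were found among 4 of 292 RSC-labeled cells (1.37%, exact 95% interval 0.374 to 3.47%) and 4 of 258 unlabeled cells (1.55%, 0.424 to 3.92%). None was found among 306 LEC-labeled cells, where the exact 95% interval reaches 1.20% and a count of 0, taken as 3 counts, allows 0.980%. In the 256 blindly sampled cells the 2 genes are not analysed. By mouse they were 2 of 258 cells, 2 of 256 and 4 of 342 in projection mice 1, 2 and 3. The share in unlabeled cells minus that in labeled cells was 0.565, 2.38 and -0.0270 percentage points in the 3 mice, with a mean of 0.973 ± 1.25 (SD, n = 3; exact two-sided permutation test, p = 0.5, where 3 mice allow no p below 0.25). With a limit of 100 counts, or of 50 counts of both genes, the value of projection mouse 1 turned to -0.585 and the mean was 0.590 ± 1.58 points (p = 1 in the same exact test). The RSC label was carried by 3 of 3 cells with Chodl, on 2 plates and in 2 mice, and these 3 cells are too few for a test.

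The listed genes were next compared between labels on counts summed per mouse and label over all cells (edgeR, quasi-likelihood test, with p-values adjusted over the 14034 genes tested by Benjamini-Hochberg, 3 mice a label). In sums, more cells of a type and more RNA per cell cannot be told apart. Of all genes tested, 3.98% were called between RSC and LEC (1.87% higher and 2.10% lower in RSC), 1.55% between unlabeled and RSC (0.884% higher and 0.670% lower in unlabeled sums) and 0% between unlabeled and LEC. Of the 7 listed genes that passed the filter on low counts, 1 was called in the first comparison and none in the other 2. For unlabeled against LEC, the count of 0 calls by edgeR stood beside 1086 genes at an unadjusted p under 0.05 and 144 calls by DESeq2. Those of DESeq2 included Gad2 (adjusted p = 0.00122), Dlx1 (0.00920) and Sst (0.000365), and Gad2 was also called with no filter on low counts (0.0331). Chodl did not pass the filter. The comparisons share sums with each other.

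Gad2 was higher in RSC than in LEC (adjusted p = 0.0484, higher in 2 of 3 mice). It was at 11.4, 0 and 23.2 CPM in the RSC sums of projection mice 1, 2 and 3 and at 0 in all 3 LEC sums. The RSC cells held 609 counts of Gad2, of which 608 were in the 4 Gad-high cells, and LEC cells held none. Gad2 also served to choose those cells. Any comparison of it between labels therefore follows where the Gad-high cells fell, and is no separate support. Without the Gad-high cells, Gad2 did not pass the filter on low counts and was not tested. Against a floor of 3 counts over all LEC cells, the RSC level pooled over cells was 239-fold higher, and without projection mouse 3 65.8-fold. The floor covers the counting error of the LEC counts only, and does not allow for how few cells held the RSC counts. The call was lost without each mouse in turn (adjusted p = 0.0633 to 0.339), with the mouse as a block (0.0970) and in cells with Snap25 and Slc17a7 only (0.156). It was kept with upper-quartile scaling (0.0484), by DESeq2 (0.00147) and with no filter on low counts (0.00554). The fitted log2 difference stayed between 9.13 and 11.06 in these alternatives, against 10.37, with LEC at 0.

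The other GABAergic genes were not called in the main test. Without the Gad-high cells, Gad1, Dlx1, Lhx6 and Slc32a1 did not pass the filter on low counts, so their values here also follow those cells. Gad1 was at 19.2, 0.143 and 53.0 CPM in the RSC sums and at 0, 1.05 and 0 in the LEC sums (adjusted p = 0.0679). Sst was at 100, 7.02 and 254 CPM in RSC and at 0 in LEC (edgeR adjusted p = 0.0703). Pooled over cells this is 2513-fold higher against the floor, and 599-fold without projection mouse 3. The same limit applies, as 97.7% of the RSC counts of Sst were in the Gad-high cells. Dlx1 (adjusted p = 0.0863), Lhx6 (0.222) and Slc32a1 (0.356) were not called either. For Lhx6, all 81 RSC counts were in Gad-high cells. Some alternatives called 3 of these genes: with no filter on low counts Gad1 (adjusted p = 0.0166), Sst (0.00900) and Dlx1 (0.0486), by DESeq2 Sst (7.36e-06) and Dlx1 (0.00523), and in cells with Snap25 and Slc17a7 only Sst (0.0219).

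Other genes of the interneuron lists were called between labels with few or none of their counts in Gad-high cells. The share called over all genes tested was 3.98% between RSC and LEC and 1.55% between unlabeled and RSC. Many of the called list genes were common in the 1007 other cells with Snap25 and Slc17a7. There Cck was in 99.3%, Id2 in 95.1%, Nr2f2 in 41.4%, Cnr1 in 38.7%, Satb1 in 36.1% and Lamp5 in 29.8% of cells. Of 10 tested transcription factor genes of interneurons, Satb1 and Nr2f2 were higher in RSC than in LEC (adjusted p = 0.00715 and 0.00924), and none was lower. Their means of 3 mice were 55.3 against 17.9 CPM for Satb1 and 118 against 33.9 CPM for Nr2f2, which encodes the nuclear receptor COUP-TFII. Only 8.71% of the RSC counts of Satb1 and none of those of Nr2f2 were in Gad-high cells. Of 7 tested Lamp5 class genes, Lamp5 and Id2 were higher in RSC (adjusted p = 0.0135 and 0.0228), at 84.8 against 18.3 CPM and 819 against 464 CPM, with 0 and 0.148% of their RSC counts in Gad-high cells. Of 3 tested Sncg class genes, the cholecystokinin gene Cck was higher and the cannabinoid receptor gene Cnr1 lower in RSC (adjusted p = 0.0267 and 0.00449). Of the 15 GABA receptor genes, Gabra5 and Gabrb1 were lower in RSC than in LEC (adjusted p = 0.000797 and 0.0415), and Gabra5 was higher in unlabeled than in RSC sums (adjusted p = 0.00521). Gabra5 was at 16.2 CPM in RSC, 101 in LEC and 86.6 in unlabeled sums, as means of 3 mice. Markers of the excitatory clusters moved with these genes: of 12 claustrum and cortical cluster genes, 5 (Synpr, Gnb4, Lxn, Gfra1 and Nr4a2) were higher and 3 (Slc30a3, Nnat and Spon1) lower in RSC than in LEC, and of 10 excitatory genes Slc17a6 and Tbr1 were higher. Their part in the changes of the interneuron and receptor lists was not tested.

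Within plate 12, without Gad-high cells, the labels stood in the same order for the called genes of the interneuron and receptor lists other than Gad2. Gad2 was at 0 in both labels there, as were Gad1, Sst and Dlx1, so that plate 12 shows no order for them. The 35 RSC-labeled and 48 LEC-labeled cells were at 52.6 and 17.5 CPM for Satb1, 137 and 6.27 for Lamp5, and 783 and 395 for Id2. Gabra5 was at 29.5 and 65.4 CPM and Cnr1 at 24.8 and 62.4 CPM. These are single values of 1 plate with no test.

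The comparison of Npy between labels changed when the Gad-high cells were left out. Over all cells, Npy was at 605, 473 and 1028 CPM in the LEC sums of projection mice 1, 2 and 3 and at 572, 13.5 and 943 CPM in the RSC sums, with no difference called (log2 fold change -0.46 ± 0.95 SE, adjusted p = 0.893). The unlabeled sums were at 136, 764 and 523 CPM, and the ranges of the 3 labels overlapped. The 4 Gad-high cells held 25361 of the 26236 RSC counts of Npy, or 96.7%.

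Without the 8 Gad-high cells, the RSC sums fell to 20.8, 13.5 and 26.9 CPM, while the LEC sums stayed at 605, 472 and 1027 CPM and the unlabeled sums were at 135, 167 and 331 CPM. The 3 labels no longer overlapped. Means were 20.4 ± 6.72, 701 ± 290 and 211 ± 105 CPM (SD, n = 3 mice). Npy was then lower in RSC than in LEC (log2 fold change -5.08 ± 0.43 SE, edgeR adjusted p = 0.000522, lower in 3 of 3 mice) and higher in unlabeled than in RSC cells (3.35 ± 0.40, adjusted p = 0.00670, higher in 3 of 3 mice). Unlabeled and LEC cells were not called different (-1.73 ± 0.37, adjusted p = 0.299), although the values were lower in unlabeled cells in 3 of 3 mice. Of the 13974 genes tested in this fit, 4.11% were called between RSC and LEC and 1.67% between unlabeled and RSC. The difference between RSC and LEC was called under each of 7 alternatives, with adjusted p from 5.12e-22 to 0.0330. That between unlabeled and RSC cells was lost without projection mouse 2 (adjusted p = 0.106). That between unlabeled and LEC cells was called when the fit had a mouse block (adjusted p = 0.0157) and by DESeq2 (0.0499). Within plate 12, the 35 RSC-labeled cells were at 18.8 CPM of Npy and the 48 LEC-labeled cells at 1085 CPM.

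**Figure D4:**
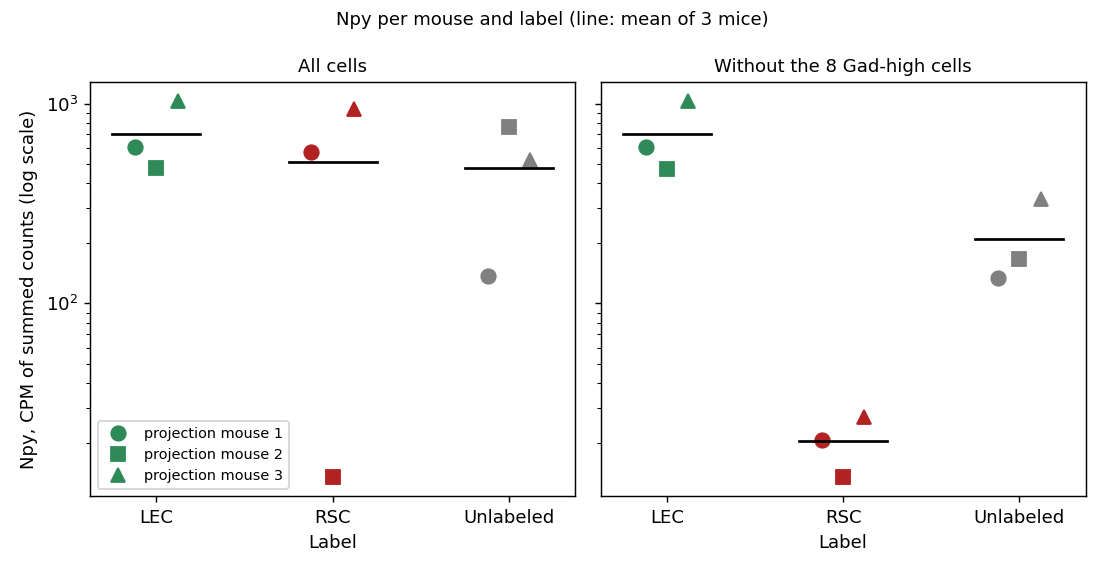
Npy in CPM of counts summed per mouse and label, on a log axis, with all cells (left) and without the 8 Gad-high cells (right). Symbols are the 3 projection mice and lines their means. Without the Gad-high cells the RSC sums lie at 13.5 to 26.9 CPM, below all others.

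Cells rich in Npy outside the Gad-high group held Slc17a7. At least 50 counts of Npy were found in 171 of the 1104 other cells, of which all 171 held Slc17a7, at a median of 20 counts. Of the 171, 1 had a count of Gad1 or Gad2, and 8 had Sst, at no more than 4 counts. They were 136 LEC-labeled, 31 unlabeled, 2 RSC-labeled and 2 blindly sampled cells. By mouse they made up 40.5, 24.1 and 60.0% of the LEC-labeled cells of projection mice 1, 2 and 3, but 0, 0 and 1.71% of the RSC-labeled cells and 8.14, 8.54 and 19.8% of the unlabeled cells. With a limit of 100 CPM, which scales with depth, the shares were 48.8, 41.4 and 68.9% of LEC-labeled, 11.6, 8.24 and 3.42% of RSC-labeled and 9.30, 17.1 and 24.4% of unlabeled cells, so that the order of RSC-labeled and unlabeled cells turned in projection mouse 1. The blindly sampled cells were at 47.0 to 84.0 CPM of Npy on their 3 plates, at a lower depth, with no test as they came from 1 mouse.

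Traces of the decarboxylases in the other cells were rare. Gad1 was present in 8 of the 848 cells of the projection mice and Gad2 in 10, none held both, and 17 of these 18 cells had exactly 1 count. Of the 18, 16 were on the 5 plates that held a Gad-high cell, which had 422 of the other cells, against 426 on the other 5 plates of these mice. Slc17a7, the gene of the excitatory cells, was held by 16 of the 18. That is near the share in all other cells, of which 1007 of 1104 held both Snap25 and Slc17a7. On plate 8, with 391 and 462 counts of Gad1 and Gad2 in C10, the other 86 cells held 2 counts of Gad1 and 4 of Gad2.

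Sst was found in far more cells than the other listed genes apart from Npy, at a low level. It was present in 175 of the 848 other cells of the projection mice (20.6%, exact 95% interval 18.0 to 23.5%), at no more than 6 counts. On plate 9, where D07 and D08 held 2836 counts of Sst between them, 59 of 82 other cells had Sst, with 126 counts in all, or 4.44% of those in the Gad-high cells. On plates 6 and 10, 35 of 82 and 41 of 86 other cells had it, with 41 and 59 counts. On plate 13, where H10 held 178 counts, 4 of 86 had it. Thinned to 20000 counts a cell, it was left in 24 of the 753 cells that were deep enough.

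Plate and label both moved with the trace of Sst. On plates 5, 7, 11 and 12, which held all LEC-labeled cells and no Gad-high cell, Sst was at 0 in every cell (87, 87, 84 and 83 cells, which allows shares of up to 3.45, 3.45, 3.57 and 3.61%), at median depths of 133742 to 197462 counts. The same was true of the 35 RSC-labeled cells of plate 12. On plate 8, whose Gad-high cell C10 lacked Sst, 1 of 86 other cells had it, with 2 counts. That cell was in well F03 and had the barcode of the Sst-rich cell F03 of plate 10. Plate 4 stood apart: it held RSC-labeled cells of projection mouse 2 and no Gad-high cell, yet 35 of 85 cells had Sst, with 49 counts and at most 3 in a cell. Plate 4 shared all 85 of its barcodes with plate 6, and its cells with the barcodes of C01 and D01 had 3 and 1 counts of Sst. Other cells with the barcode of an Sst-rich cell had none. On plate 12, which shared 83 barcodes with plate 6, the cells with the barcodes of C01 and D01 were at 0 in totals of 178276 and 305026 counts. The cells with the barcodes of D07 and D08 on plate 11 and of H10 on plates 5 and 7 were at 0 as well. The part of shared barcodes or of free RNA in these traces was not tested.

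**Figure D5:**
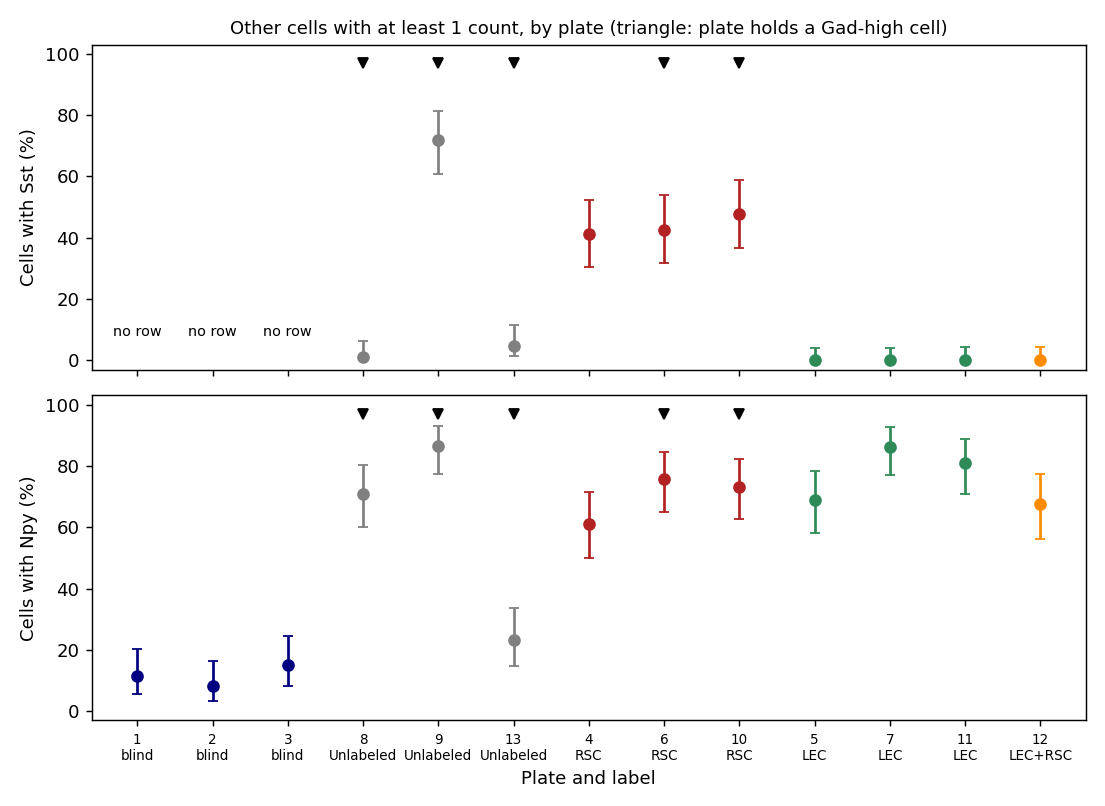
Share of cells other than Gad-high ones with at least 1 count of Sst (top) or Npy (bottom) on each of the 13 plates, in percent with exact 95% intervals, with plates ordered by label and triangles for plates that held a Gad-high cell. Sst has no row for the 3 blindly sampled plates and is at 0 on the 4 plates with LEC-labeled cells, at 41.2 to 47.7% on plates 4, 6 and 10, and at 72.0% on plate 9.

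Within a plate, cells with the trace of Sst had the higher median depth on each of the 4 plates compared. On plate 9 the 55 cells with Sst had a median total of 188419 counts and the 18 without 143314. On plate 6 the medians were 155762 for 34 cells with Sst and 123449 for 43 without. The barcodes of cells with Sst were not nearer to those of the Sst-rich cells on every plate: the median number of differing bases was 5 against 6 on plates 6 and 9, 6 against 5 on plate 10 and 6.5 against 6 on plate 13, with no cell nearer than 3. Crhbp, which was high in the same source cells, was also in 6 cells of plate 4, 3 of plate 6, 5 of plate 9 and 2 of plate 10, at 1 count each. Chodl was in 1 cell of plate 4 and 1 of plate 9 and in no other cell outside the Gad-high ones.

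Without the Gad-high cells, the summed Sst level was 4.55, 7.02 and 2.16 CPM in the RSC sums of projection mice 1, 2 and 3 and 0 in the LEC sums (edgeR adjusted p = 0.0512, with 0.0301 with the mouse as a block and 3.07e-05 by DESeq2). With 149 counts in RSC cells and none in LEC cells, the pooled level was 59.9-fold higher against the floor, and 36.4-fold without projection mouse 2. The unlabeled sums were at 0.423, 9.11 and 0.143 CPM, the highest of which was plate 9 and the lowest plate 8.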

How the data were processed

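Single cells of 13 plates were measured by RNA sequencing. The authors deposited tables of counts per gene and cell that were not normalized, with tables of animal, projection and barcode. Per the Methods, STAR aligned the reads and each read was assigned a barcode and a UMI. Whether the deposited counts are of reads or UMIs, the annotation and the use of strand are not given in the sources used here. The processing notes name NCBIM37 and Seurat. Dlx1, Slc32a1 and Nos1 overlap antisense genes, which cannot be told apart from them without strand. Lhx6 overlaps a small RNA gene (Gm27953) on its own strand, which strand would not separate. ERCC spike-ins were left out.

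Members and lists were chosen with earlier results of these data known. Named genes were the members, Slc17a7, Snap25, examples of each marker list and the 10 genes most like Gad1. Counts were summed per mouse and label and tested with edgeR 4.0.16 (TMM, filterByExpr, adjusted p threshold 0.05), with DESeq2 1.42.0 as an alternative, in R 4.3.3. A listed gene without a row in 1 table was set to 0 there, although that table also lists 724 genes at 0 in all its cells. A floor of 3 counts over a label was used where it held none, and it covers counting error only. Because a mouse gave 3 sums, pairing by animal was checked: across genes the deviations of its sums from the label means had a median correlation of 0.0334 (-0.0461 to 0.0923, 9 pairs), against -0.0143 for 18 pairs of different mice. On simulated data for RSC against LEC, with 14034 genes and 200 changed, the test recovered 26% of changes at 2-fold and 67% at 4-fold, with 7% false calls.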

Additional observations from a re-analysis of the deposited data

Results flagged for a closer look

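Over the 10 plates of the projection mice, the level of each listed gene in the cells that are not Gad-high was searched for a plate far from the others, and 5 of 8 genes had one. The rule picks about 1 in 20 groups by chance when values are continuous, and these levels are mostly 0 or single counts, so that the 2 rates cannot be compared. Gad1 was at 1.06 CPM on plate 5, from the 13 counts of 1 shallow cell, and next at 0.251 CPM. Slc32a1 was at 0.163 CPM on plate 5, and next at 0.0836 CPM. Lhx6 was at 0.215 CPM on plate 13, Dlx1 at 0.140 CPM on plate 4 and Chodl at 0.140 CPM on plate 4. Apart from Gad1, each of these levels rests on 1 or 2 counts.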

How the results depend on the processing

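The counts of called genes depended on tool and replicates. DESeq2 called 1152 genes for RSC against LEC, 674 for unlabeled against RSC and 144 for unlabeled against LEC, where edgeR called 558, 218 and 0. Leaving out each mouse in turn gave 59 to 361 and 0 to 37 for the first and second comparison. For unlabeled against LEC, no filter on low counts gave 12 and the mouse as a replicate block gave 2. The cause was not tested, apart from the smaller number of sums when a mouse is left out.

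For unlabeled against RSC, in which none of the listed genes was called over all cells, the log2 fold change turned its sign in several settings. Leaving out each mouse in turn gave -1.20 to 0.39 for Gad1, -0.081 to 0.78 for Slc32a1, -3.48 to 0.24 for Lhx6, -0.85 to 0.72 for Dlx1, -4.26 to 1.07 for Sst, -1.20 to 0.62 for Npy and -0.37 to 0.065 for Slc17a7. With the mouse as a replicate block Slc32a1 was at -0.16 and Npy at 0.20. Slc32a1 was at -0.028 with only cells that hold Snap25 and Slc17a7, and Npy at 3.35 without the Gad-high cells. Without each mouse in turn Sst in the cells that are not Gad-high was at -3.56 to 0.027, and Npy was at 0.42 over all cells without projection mouse 1. For unlabeled against LEC, Slc17a7 was at 0.0039 without the Gad-high cells and at -0.072 to 0.10 without each mouse in turn.

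Gad-high cells are 8 in number, and 0 among 306 LEC-labeled cells has an exact 95% upper bound of 1.20%. The blindly sampled mouse is 1 animal at lower depth, so that it enters no test. Depth limits traces: thinning took Gad1, Lhx6 and Chodl to 0% of cells and Npy from 56.0 to 34.1%.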
